A study of Mus musculus with 20 samples.

Results

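The genes studied here mark the tissue-resident macrophages of the mouse airspace and were followed in RNA from whole lung. They are Marco, Olr1, Pparg, Fabp1, Fabp4, Cidec, Abcg1, Plet1, Flrt3 and Krt79. They were picked by gene symbol from a table of expected counts that lists 24054 genes, and all 10 were present and abundant enough to be tested. The study compared 4 groups of female C57Bl6 mice with 5 libraries each. The lungs labelled ALOX15 knockout came from mice given house dust mite (HDM) extract through the nose every day for 14 days, or from mice given saline (PBS in the library names). The wild-type lungs came from mice given the same HDM course or saline. Alox15 encodes 12/15-lipoxygenase, an enzyme that oxygenates fatty acids, and HDM is an allergen extract used to provoke an asthma-like inflammation in mice. Levels are given as CPM, a count scaled to the size of its library, computed from the authors' expected counts. A CPM value depends on the length of the gene, so levels are compared between libraries and not between genes.

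Alveolar macrophages live on the air side of the lung epithelium and clear dust, microbes and spent surfactant. Granulocyte-macrophage colony-stimulating factor from the epithelium, together with transforming growth factor beta, induces the nuclear receptor PPAR gamma in their precursors, and PPAR gamma in turn sets up the lipid-handling programme of these cells. Marco and Olr1 are scavenger receptors at the cell surface. Pparg encodes PPAR gamma itself, Fabp1 and Fabp4 encode fatty acid-binding proteins, Cidec encodes a protein of the lipid droplet surface, and Abcg1 encodes a transporter that exports cholesterol. Plet1 is a membrane-anchored protein, Flrt3 is an adhesion protein with leucine-rich repeats, and Krt79 is a keratin. Several of these genes are also made elsewhere: Fabp4, Cidec and Pparg in fat cells, Fabp1 in hepatocytes, Fabp4 in capillary endothelium and Plet1 in epithelia. In whole lung, fewer cells of a type and less RNA per cell cannot be told apart.

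The 20 libraries held 12573113 to 23305673 expected counts each. Alox15 RNA was higher in the libraries labelled knockout than in wild type. It stood at 35.0 to 45.5 CPM in the libraries labelled knockout with HDM and at 38.4 to 44.7 CPM in those labelled knockout with saline, against 7.92 to 29.8 CPM in wild type with HDM and 0.825 to 11.1 CPM in wild type with saline. Under saline the libraries labelled knockout were higher by 3.15 ± 0.45 on the log2 scale (SE; adjusted p = 0.000583, edgeR quasi-likelihood test; exact two-sided permutation p = 0.00794, the smallest that 5 against 5 allows). Counts per gene do not show whether this RNA can make the enzyme, so the knockout itself was not tested. Groups are therefore called by their labels throughout. Adipoq, the fat-cell hormone adiponectin, was at 85.1 CPM or more in 5 libraries (replicate 5 of the libraries labelled knockout with HDM, and replicates 2 and 4 of both wild-type groups), which bears on Fabp4, Cidec and Pparg below. Of the markers that define alveolar macrophages and are no members, Itgax (CD11c) averaged 420 ± 38.2 CPM in libraries labelled knockout with HDM against 79.1 ± 11.4 CPM with saline, and 380 ± 103 CPM in wild type with HDM against 68.0 ± 9.86 CPM with saline (SD, n = 5 each). Siglec5, the symbol under which older mouse annotation lists Siglec-F, averaged 9.21 ± 2.65 and 9.37 ± 1.73 CPM in libraries labelled knockout with HDM and saline, and 12.6 ± 3.08 and 11.2 ± 3.52 CPM in wild type with HDM and saline (SD, n = 5 each).

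Under HDM some of the 10 genes were higher and others lower. Olr1 and Plet1 were higher and Marco and Flrt3 lower under HDM in both genotypes, and these 4 were called in the same direction in both, as were 26.4% of all tested genes. The wild-type Marco call was lost without saline replicate 4. In the libraries labelled knockout, 5 of the 10 passed an adjusted p under 0.05 (2 higher and 3 lower), where 51.9% of all 16193 tested genes did, 26.2% higher and 25.7% lower. In wild type, 5 of the 10 also passed (2 higher and 3 lower), where 30.1% of all tested genes did, 13.6% higher and 16.5% lower. The median log2 fold change of the 10 was 0.41 in the libraries labelled knockout and 0.14 in wild type, beside 0.02 and -0.02 over all tested genes. The members' share of calls in the libraries labelled knockout was near that of all genes. The HDM and saline libraries did not overlap at all for 4 members in the libraries labelled knockout (43.9% of all genes) and for 3 in wild type (11.6% of all genes). Between genotypes 0 members passed under saline (0.908% of all genes) and 2 under HDM (6.67%), and 1 passed the test of the difference between the HDM responses (1.24%).

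**Figure D1:**
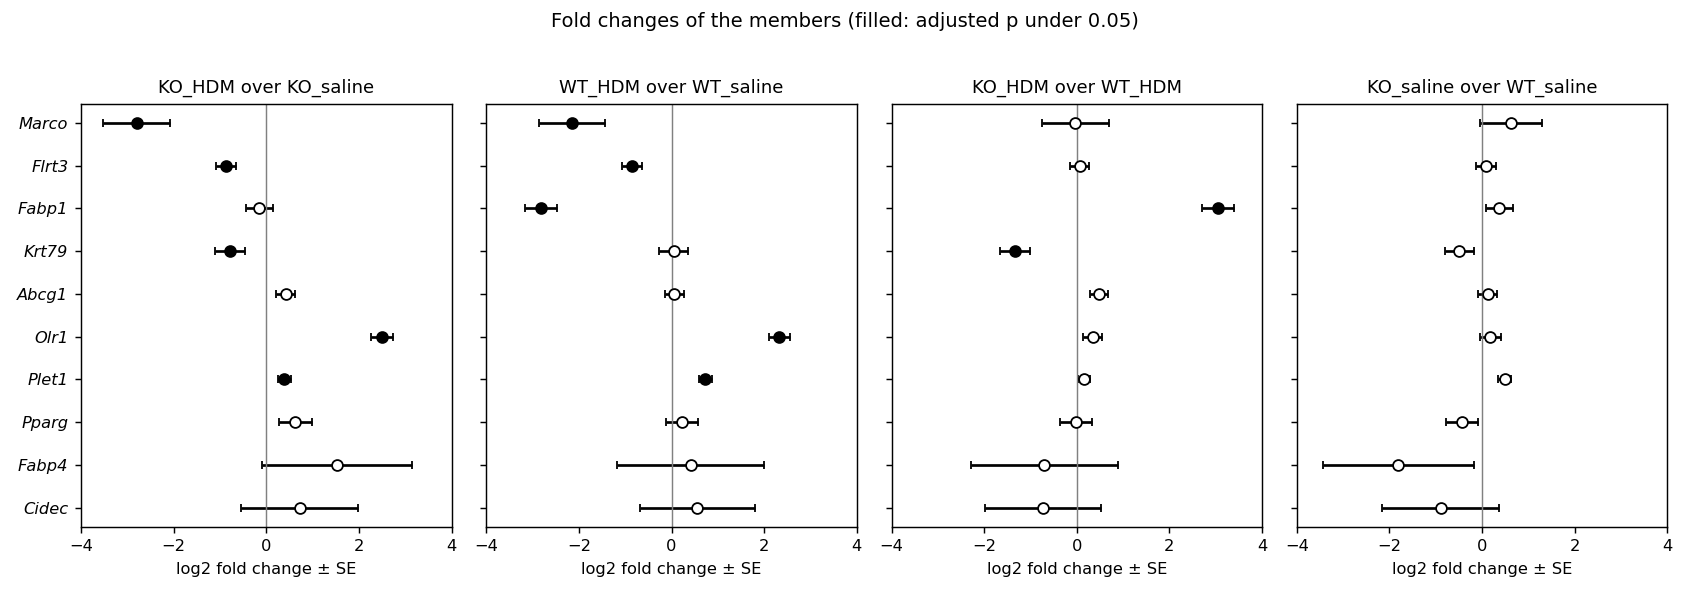
Log2 fold change of each of the 10 genes with its standard error, from the fit of all 20 libraries, for HDM against saline and for knockout labels (KO) against wild type (WT); filled points have an adjusted p under 0.05. Olr1 lies at 2.50 and 2.33 for HDM against saline in the libraries labelled knockout and in wild type, and Fabp1 at 3.05 for knockout labels against wild type under HDM.

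The windows upstream of the 4 genes called under HDM in both genotypes over all libraries, and of Fabp1, are shown. They let the reader see where the elements of 2 regulators of these cells fall. Capitals mark GAGGAA, the core bound by the macrophage factor PU.1, or AGGTCA, the element bound by nuclear receptors such as PPAR gamma, on either strand (TTCCTC and TGACCT on the other). Each window is the 250 bases before the RefSeq start in build GRCm38.p6, printed 5′ to 3′ on the strand of the gene.
Olr1 (chr6:129507166-129507415, minus strand): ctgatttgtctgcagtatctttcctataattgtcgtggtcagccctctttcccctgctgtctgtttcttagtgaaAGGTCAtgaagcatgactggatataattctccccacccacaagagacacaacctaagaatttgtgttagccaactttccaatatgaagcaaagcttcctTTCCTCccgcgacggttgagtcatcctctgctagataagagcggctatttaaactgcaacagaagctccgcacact
Plet1 (chr9:50494275-50494524, plus strand): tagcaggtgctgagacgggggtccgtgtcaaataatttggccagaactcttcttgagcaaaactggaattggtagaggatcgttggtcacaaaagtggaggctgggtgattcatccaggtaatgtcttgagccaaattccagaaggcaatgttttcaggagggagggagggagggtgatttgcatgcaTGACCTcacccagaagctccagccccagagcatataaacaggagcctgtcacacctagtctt
Marco (chr1:120505025-120505274, minus strand): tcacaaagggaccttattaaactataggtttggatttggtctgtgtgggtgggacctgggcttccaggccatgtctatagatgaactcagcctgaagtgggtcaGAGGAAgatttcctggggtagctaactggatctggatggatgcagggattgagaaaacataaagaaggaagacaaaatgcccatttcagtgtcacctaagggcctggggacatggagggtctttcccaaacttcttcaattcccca
Flrt3 (chr2:140671477-140671726, minus strand): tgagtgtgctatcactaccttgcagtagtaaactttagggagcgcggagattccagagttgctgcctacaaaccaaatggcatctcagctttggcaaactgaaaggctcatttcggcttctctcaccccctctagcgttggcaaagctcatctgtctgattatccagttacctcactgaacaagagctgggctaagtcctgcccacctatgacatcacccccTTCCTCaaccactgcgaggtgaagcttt
Fabp1 (chr6:71199629-71199878, plus strand): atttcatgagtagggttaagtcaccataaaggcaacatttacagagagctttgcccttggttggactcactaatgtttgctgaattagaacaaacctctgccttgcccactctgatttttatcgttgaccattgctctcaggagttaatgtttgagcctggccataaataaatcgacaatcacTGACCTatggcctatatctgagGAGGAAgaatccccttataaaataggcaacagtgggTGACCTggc
RefSeq windows were matched for 8 of the 10 members, 11 windows in all, and Fabp4 and Abcg1 had no entry. The PU.1 core was present in the windows of 5 members, and in 23.3% of all 32851 windows in the table. AGGTCA was present in those of 4 members (Pparg, Fabp1, Plet1 and Olr1), and in 14% of all windows. Pparg had 3 windows and Cidec 2, so these counts of members and shares of windows are not like measures. The direct repeat of AGGTCA with 1 base between its copies is bound by PPAR gamma with its partner RXR. Its exact sequence was in 0 of the 11 windows and in 0.0335% of all windows. Only exact matches of each element were counted, so imperfect copies of the repeat were not searched for. No PU.1 core overlapped an AGGTCA element in these windows. Windows with both elements were found for Olr1, Fabp1 and Pparg, and Pparg passed in no comparison over all libraries.

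Of the scavenger receptors, Olr1 was higher under HDM in both genotypes. Olr1 encodes LOX-1, a lectin-like receptor that takes up oxidised low-density lipoprotein. In libraries labelled knockout it stood at 74.3, 83.5, 74.6, 99.0 and 71.6 CPM with HDM, against 13.1, 16.3, 15.0, 11.9 and 14.9 CPM with saline. The wild-type levels were 85.4, 49.3, 83.1, 55.6 and 44.2 CPM with HDM, against 19.4, 9.22, 13.4, 7.36 and 13.8 CPM with saline. Every HDM library lay above every saline library in both genotypes. For the libraries labelled knockout the log2 fold change was 2.50 ± 0.23 (SE; adjusted p = 1.01e-07) and 2.33 ± 0.23 in wild type (adjusted p = 9.11e-07; edgeR quasi-likelihood test with Benjamini-Hochberg adjustment over all tested genes). The difference between these responses was 0.16 ± 0.31 (adjusted p = 0.851; 95% interval -0.50 to 0.82), and the genotypes under HDM differed by 0.34 ± 0.21 (adjusted p = 0.381; 95% interval -0.11 to 0.79). The genes with the profile nearest to Olr1 across the 20 libraries were Gp49a, Itgax and Tfec, at a root mean square difference of 0.21, 0.24 and 0.24 in centred log2 CPM.

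Marco, a receptor that binds bacteria and inhaled particles, went the other way. In libraries labelled knockout it was at 5.07, 4.09, 7.39, 7.33 and 5.17 CPM with HDM, against 24.5, 37.3, 43.0, 66.1 and 31.3 CPM with saline. The groups did not overlap, and the log2 fold change was -2.80 ± 0.73 (SE; adjusted p = 0.00381). Wild-type libraries held 6.06, 14.8, 1.09, 2.59 and 5.05 CPM with HDM, against 6.98, 5.65, 12.4, 92.1 and 14.2 CPM with saline. These groups overlapped, and 1 saline library, replicate 4, stood far above the other 4. The log2 fold change in wild type was -2.15 ± 0.72 (adjusted p = 0.0312), and without that library it was -0.73 (adjusted p = 0.284). The call was also lost on leaving out replicate 1, 3, 4 or 5 of the wild-type HDM libraries (adjusted p 0.0585 to 0.0753). It was lost too with limma voom (-1.81, adjusted p = 0.0902), with the compared libraries alone (-2.12, adjusted p = 0.148) and with replicate number as a block. The same library had 1100 CPM summed over 12 lymphocyte markers, where the other 4 wild-type saline libraries had 199 to 281 CPM. Of those markers 4 rose and 0 fell under HDM in the libraries labelled knockout (26.2% and 25.7% of all genes). In wild type 1 rose and 1 fell (13.6% and 16.5% of all genes). The highest Marco library labelled knockout with saline, replicate 4, had 382 CPM of them, where the other 4 of its group had 147 to 178 CPM. Ccl5 and Cd7, which T and natural killer cells express, were with Gm1987 the genes nearest to Marco in profile (0.89, 0.95 and 0.88). The SD of Marco itself over the 20 libraries was 1.57, so these profiles were not close. The part of these genes in the Marco result was not tested.

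Between genotypes Marco did not pass the test. It averaged 40.4 ± 15.9 CPM in libraries labelled knockout with saline and 26.3 ± 37.0 CPM in wild type with saline (SD, n = 5 each; log2 0.62 ± 0.67, SE, adjusted p = 0.661, 95% interval -0.80 to 2.04). Without wild-type saline replicate 4 that difference was 2.04 (adjusted p = 0.0731). With HDM it averaged 5.81 ± 1.48 CPM in libraries labelled knockout and 5.91 ± 5.33 CPM in wild type (log2 -0.03 ± 0.72, adjusted p = 0.99, 95% interval -1.56 to 1.50). Counts of Marco per count of Cd68, a lysosomal protein of all macrophages, ran from 0.029 to 0.0534 in libraries labelled knockout with HDM, against 0.775 to 1.94 with saline. In wild type they ran from 0.0252 to 0.221 with HDM, against 0.289 to 2.49 with saline. Marco counts per Cd68 count were thus lower under HDM in both genotypes, with no overlap of the ranges. Cd68 itself averaged 133 CPM with HDM against 38.3 CPM with saline in the libraries labelled knockout. In wild type Cd68 averaged 60.8 CPM with HDM against 27.1 CPM with saline. A gene with an unchanged level would therefore also fall in this ratio.

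**Figure D2:**
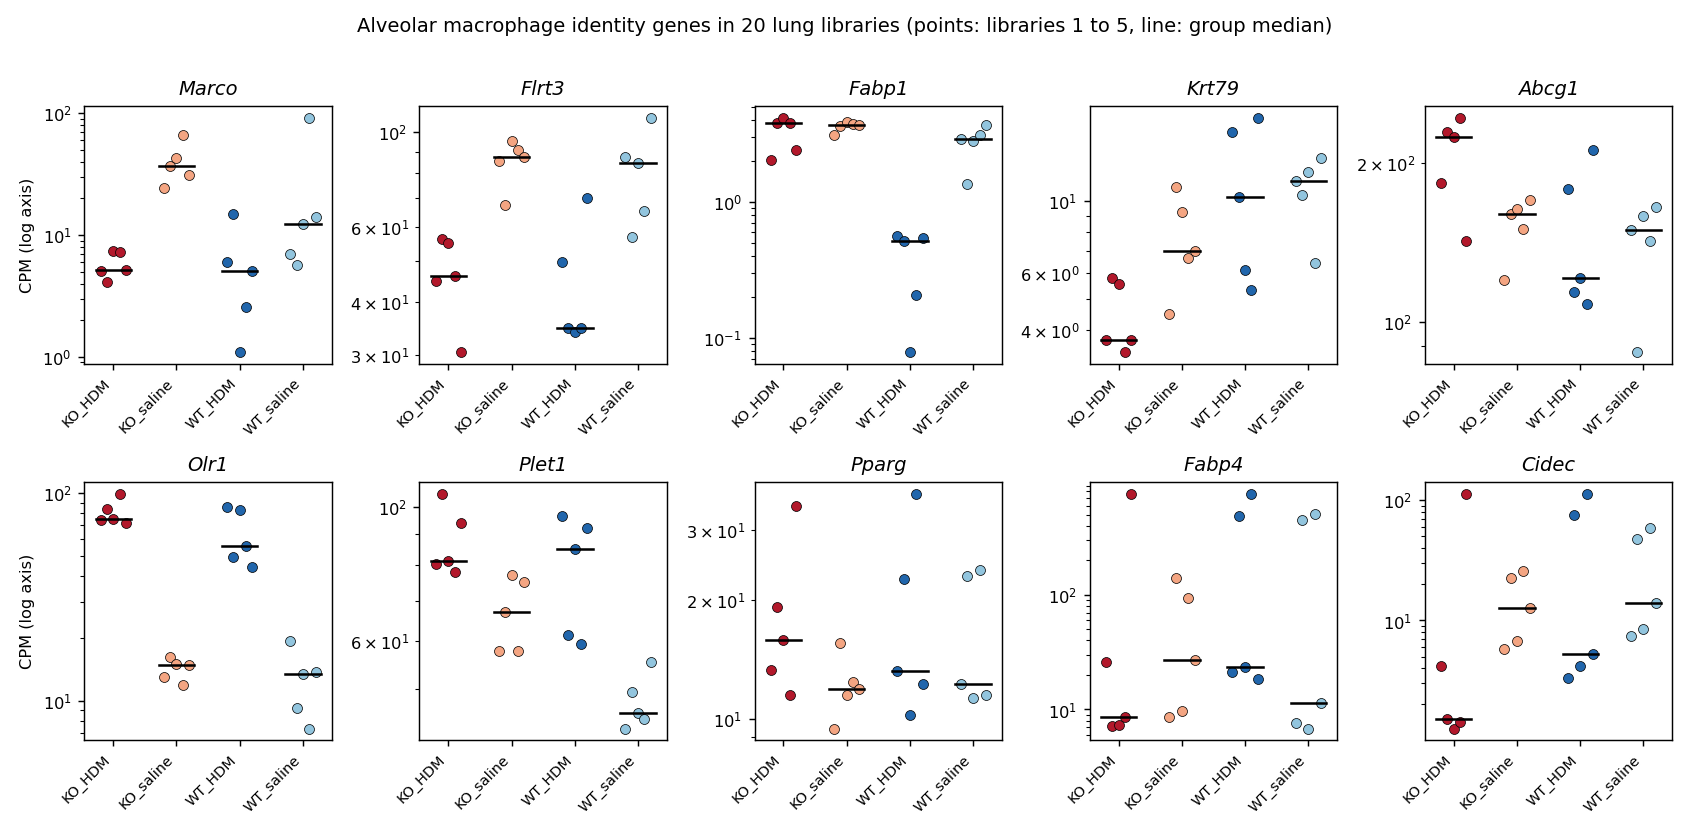
CPM on a log scale of each of the 10 genes in all 20 libraries, by group, with 1 point per library. Olr1 shows HDM libraries at 44.2 CPM or more and saline libraries at 19.4 CPM or less, and Fabp1 shows wild-type HDM libraries at 0.556 CPM or less.

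Fabp1 was the member whose HDM response depended on the genotype label. The protein carries fatty acids and haem in hepatocytes and enterocytes, and its transcript is a marker of alveolar macrophages in mouse. In libraries labelled knockout it stood at 2.03, 3.85, 4.18, 3.80 and 2.43 CPM with HDM, against 3.11, 3.62, 3.87, 3.74 and 3.69 CPM with saline. In wild type it stood at 0.556, 0.512, 0.0777, 0.207 and 0.545 CPM with HDM, against 2.92, 1.35, 2.82, 3.13 and 3.68 CPM with saline. The wild-type HDM libraries lay below all 15 others. They hold 9, 8, 1, 4 and 11 counts, so counting error is a large part of their spread. Fabp1 gave a log2 fold change of -0.15 ± 0.29 (SE; adjusted p = 0.7) within the libraries labelled knockout, and within wild type it was -2.82 ± 0.35 (adjusted p = 1.2e-05). The difference between these responses was 2.68 ± 0.46 (adjusted p = 0.00809; 95% interval 1.70 to 3.66), the 1 member called in a test that called 1.24% of all genes, 1.00% of them higher. Without the 7 libraries at 10 CPM of Adipoq or more it was 2.85 (adjusted p = 0.0535). Under HDM the libraries labelled knockout were 8.31-fold higher than wild type (log2 3.05 ± 0.35, adjusted p = 3.21e-05).

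Liver transcripts were high in the libraries labelled knockout with HDM. Alb (albumin) was at 20.1, 56.2, 76.4, 63.3 and 53.9 CPM there, against 0.622 to 1.10 CPM with saline. In wild type it was at 0, 0.256, 0, 0 and 0.198 CPM with HDM, against 0.363 to 0.825 CPM with saline. Summed over 16 liver markers, the libraries held 66.8 to 399 CPM in the libraries labelled knockout with HDM, against 12.5 to 55.3 CPM with saline, and 11.9 to 195 CPM in wild type with HDM, against 14.2 to 46.2 CPM with saline. The highest sums rest on Cyp2e1, which reached 287 CPM in replicate 5 of the libraries labelled knockout with HDM and 188 CPM in wild-type HDM replicate 4, both rich in Adipoq. Without Cyp2e1, a sum added after values were seen, the markers held 44 to 138 CPM in the libraries labelled knockout with HDM, against 3.24 to 4.70 CPM with saline, and 3.66 to 7.62 CPM in wild type with HDM, against 3.49 to 6.38 CPM with saline. Of the 15 that were tested, 13 rose under HDM in the libraries labelled knockout (26.2% of all genes), and Fgb and Cyp3a11 had 0 counts in all 15 libraries of the other groups. The ratio of Fabp1 to Alb counts was 0.045 to 0.101 in libraries labelled knockout with HDM, against 3.52 to 5.73 with saline, and it was 3.54 to 6.62 in wild type with saline. With a liver score as a covariate the Fabp1 difference under HDM was 1.74 (adjusted p = 0.7), but 96.4% of that score's variance lay between the groups, so the liver signal and the group cannot be told apart for this gene. Relative to Cd68, Fabp1 counts ran from 0.0177 to 0.0301 in libraries labelled knockout with HDM, against 0.0799 to 0.116 with saline. In wild type they ran from 0.0018 to 0.00928 with HDM, against 0.0844 to 0.121 with saline. Cd68 itself averaged higher under HDM in both genotypes, so an unchanged gene also falls in these ratios.

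**Figure D3:**
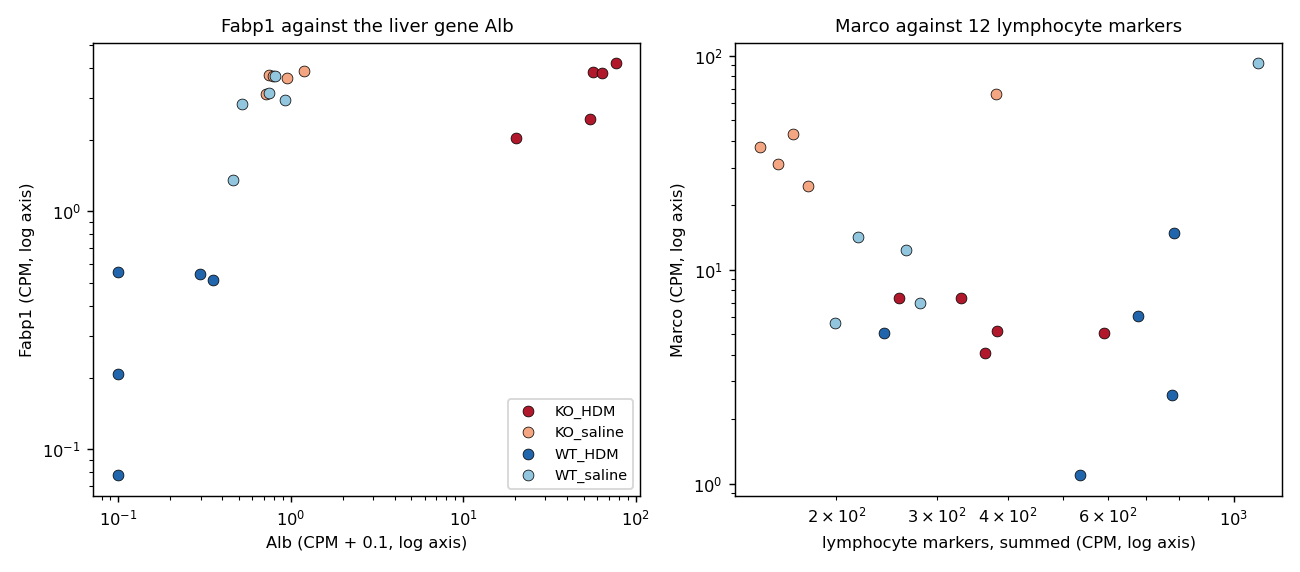
Fabp1 against Alb, and Marco against the summed lymphocyte markers, in CPM on log axes with 1 point per library coloured by group; a small constant, given on the axis, was added to Alb to show libraries at 0. The libraries labelled knockout with HDM lie at 20.1 CPM of Alb or more, and wild-type saline replicate 4 lies at 1100 CPM of lymphocyte markers and 92.1 CPM of Marco.

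Fabp4, Cidec and Pparg were each highest in the 5 libraries with the most Adipoq. Fabp4, the fat-cell fatty acid-binding protein, stood at 25.7, 7.21, 7.39, 8.66 and 760 CPM in libraries labelled knockout with HDM, against 8.62, 141, 9.77, 94.5 and 26.9 CPM with saline. Wild-type lungs had 21.3, 489, 23.5, 760 and 18.6 CPM with HDM, against 7.62, 454, 6.81, 508 and 11.4 CPM with saline. The 5 highest libraries are the 5 with the most Adipoq, which was at 7.42, 0.780, 0.195, 0.386 and 167 CPM in libraries labelled knockout with HDM and at 0.618, 125, 5.36, 169 and 2.48 CPM in wild type with HDM. Plin1, a coat protein of fat-cell lipid droplets, was highest in the same 5. Adipocyte markers summed to 89.6 to 2831 CPM in libraries labelled knockout with HDM, against 119 to 587 CPM with saline, and to 104 to 3256 CPM in wild type with HDM, against 118 to 2302 CPM with saline. The median log2 fold change of these 16 markers under HDM was 0.99 in the libraries labelled knockout and 0.38 in wild type. Of the 16, 0 passed in either genotype (51.9% and 30.1% of all genes). The median sum with knockout labels was 92.2 CPM with HDM against 242 CPM with saline, and the 2831 CPM were in HDM replicate 5. The wild-type median sum was 181 CPM with HDM against 154 CPM with saline.

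Neither Fabp4 nor Cidec passed in any comparison over all libraries. For HDM in the libraries labelled knockout the log2 fold changes were 1.53 ± 1.62 for Fabp4 (SE; adjusted p = 0.452) and 0.72 ± 1.26 for Cidec (adjusted p = 0.654). Without replicate 5 of the HDM libraries Fabp4 was at -2.20 (adjusted p = 0.245) and Cidec at -2.81 (adjusted p = 0.0502). Cidec, which enlarges lipid droplets by fusing them, stood at 4.22, 1.51, 1.26, 1.43 and 113 CPM there, against 5.84, 22.7, 6.73, 25.7 and 12.6 CPM with saline. In the wild-type libraries Cidec was at 3.34, 76.2, 4.20, 112 and 5.30 CPM with HDM, against 7.43, 47.3, 8.51, 59.0 and 14.0 CPM with saline. Where Adipoq was under 10 CPM, Cidec was at 1.26 to 4.22 CPM in 4 libraries labelled knockout with HDM, against 5.84 to 12.6 CPM in 3 with saline. In the like wild-type libraries it was at 3.34 to 5.30 CPM with HDM, against 7.43 to 14.0 CPM with saline (3 each). Within the low-fat libraries Cidec was thus lower under HDM in each genotype. Fabp4 did not follow it. In those labelled knockout Fabp4 was at 7.21 to 25.7 CPM with HDM, against 8.62 to 26.9 CPM with saline. Low-fat wild-type libraries had more Fabp4 with HDM, 18.6 to 23.5 CPM against 6.81 to 11.4 CPM with saline. Without the 5 libraries at 50 CPM of Adipoq or more, the HDM fold change in the libraries labelled knockout was -2.83 for Cidec (adjusted p = 0.00038) and -2.22 for Fabp4 (adjusted p = 0.0346). Without the 7 libraries at 10 CPM or more, it was -2.02 for Cidec (adjusted p = 0.00121) and -0.32 for Fabp4 (adjusted p = 0.603). In wild type without those 7, it was -1.23 for Cidec (adjusted p = 0.0567).

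**Figure D4:**
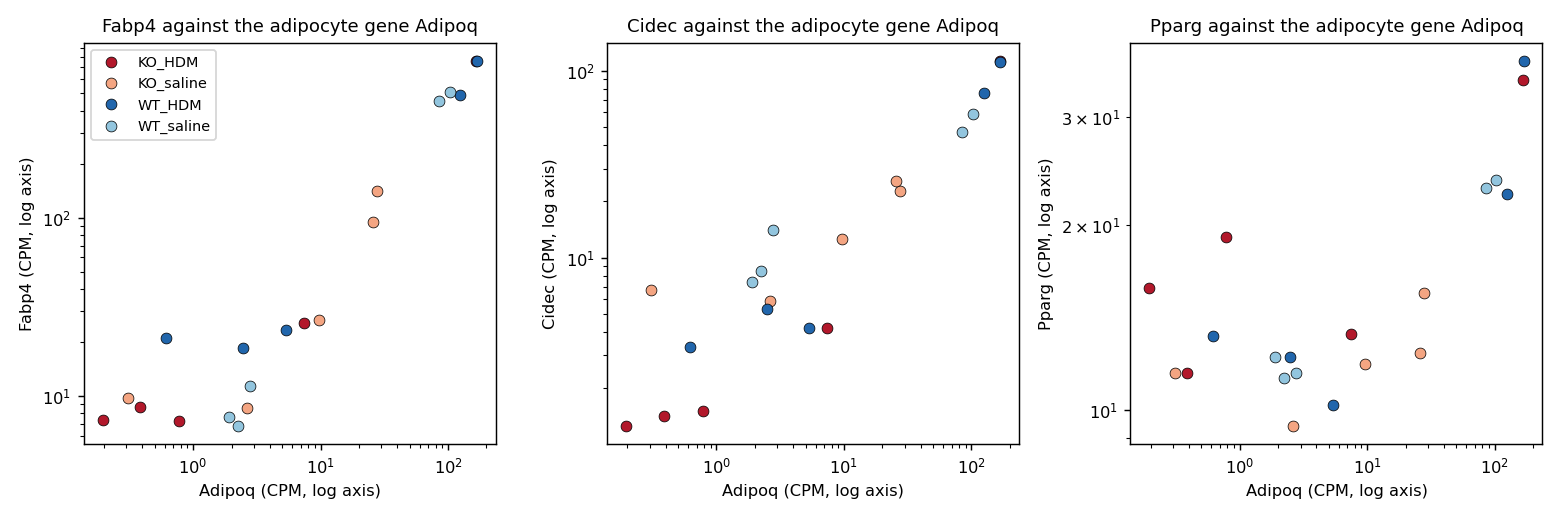
Fabp4, Cidec and Pparg against Adipoq in CPM on log axes, with 1 point per library coloured by group. The 5 libraries with 85.1 CPM of Adipoq or more hold 454 CPM of Fabp4 or more, and the others hold 141 CPM or less; the points of knockout-labelled HDM replicate 5 and wild-type HDM replicate 4 nearly coincide.

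Pparg was at 13.3, 19.1, 15.8, 11.5 and 34.5 CPM in libraries labelled knockout with HDM, against 9.43, 15.5, 11.5, 12.4 and 11.9 CPM with saline. The wild-type values were 13.2, 22.5, 10.2, 37.0 and 12.2 CPM with HDM, against 12.2, 23.0, 11.3, 23.7 and 11.5 CPM with saline. The groups overlapped, and the 2 highest libraries, 34.5 and 37.0 CPM, are the 2 with the most Adipoq. The log2 fold change for HDM was 0.63 ± 0.35 with knockout labels (SE; adjusted p = 0.144; with an adipose covariate 0.67, adjusted p = 0.00238) and 0.22 ± 0.35 in wild type (adjusted p = 0.683). Abcg1, whose loss loads mouse alveolar macrophages with lipid, was at 183, 229, 224, 244 and 142 CPM in libraries labelled knockout with HDM, against 120, 160, 164, 150 and 170 CPM with saline. In wild type it was at 179, 114, 121, 108 and 212 CPM with HDM, against 149, 87.4, 159, 142 and 165 CPM with saline. It did not pass for HDM in the libraries labelled knockout (log2 0.42 ± 0.20, adjusted p = 0.0832; without the 5 fat-rich libraries 0.51, adjusted p = 0.00693) or in wild type (0.06 ± 0.20, adjusted p = 0.841). Between genotypes under HDM it differed by 0.48 ± 0.20 (adjusted p = 0.166), and by 0.64 without replicate 5 of the wild-type HDM libraries (adjusted p = 0.0492).

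Plet1 and Flrt3, the membrane proteins, moved modestly and in opposite directions. Plet1 stood at 80.4, 105, 81.3, 77.9 and 94.0 CPM in libraries labelled knockout with HDM, against 57.7, 66.9, 77.0, 57.8 and 75.0 CPM with saline. In wild type it stood at 96.5, 61.4, 85.1, 59.4 and 92.3 CPM with HDM, against 43.0, 49.5, 45.6, 44.6 and 55.4 CPM with saline. Neither pair of groups overlapped. The log2 fold change was 0.39 ± 0.14 with knockout labels (SE; adjusted p = 0.021; without replicate 2 of the HDM libraries 0.32, adjusted p = 0.0655; without the 7 libraries at 10 CPM of Adipoq or more 0.29, adjusted p = 0.0959) and 0.73 ± 0.14 in wild type (adjusted p = 0.000611). The profiles nearest to Plet1 were those of the epithelial genes Tmprss4, Mlph and Ehf (0.15, 0.19 and 0.20). Of 12 airway epithelial and mucous genes listed after values were seen, 11 rose under HDM in the libraries labelled knockout (26.2% of all genes). In wild type 12 rose (13.6% of all genes). Their sums were 3023 to 8688 CPM with HDM against 228 to 494 CPM with saline in the libraries labelled knockout. The wild-type sums were 3665 to 8704 CPM with HDM against 305 to 1143 CPM with saline. The part of these genes in the Plet1 result was not tested.

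Under saline, Plet1 was the 1 member whose genotypes did not overlap (3.06% of all genes), with 57.7 to 77.0 CPM in libraries labelled knockout and 43.0 to 55.4 CPM in wild type. Its log2 difference was 0.49 ± 0.14 (SE; adjusted p = 0.115, edgeR; 95% interval 0.19 to 0.79). Of the 10 members, 0 passed in this comparison by edgeR, where 0.908% of all genes did (0.593% higher and 0.315% lower). Plet1 alone passed at an unadjusted p under 0.05, where 15.7% of all genes did. DESeq2 called Plet1 alone among the members (adjusted p = 0.0299), and limma voom called 0.

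Flrt3 was at 44.7, 56.3, 54.9, 46.1 and 30.5 CPM in libraries labelled knockout with HDM, against 85.5, 67.4, 95.1, 91.0 and 87.5 CPM with saline. Wild-type lungs held 49.7, 34.7, 34.1, 34.7 and 69.9 CPM with HDM, against 87.6, 56.8, 84.4, 65.2 and 108 CPM with saline. The groups stood apart in the libraries labelled knockout, and in wild type replicate 5 of the HDM libraries reached into the saline range. The log2 fold change was -0.87 ± 0.21 with knockout labels (SE; adjusted p = 0.0019) and -0.85 ± 0.21 in wild type (adjusted p = 0.00545), and the difference between them was -0.03 (95% interval -0.67 to 0.61). Capillary endothelial markers fell alongside: 14 of 15 in the libraries labelled knockout (25.7% of all genes) and 10 of 15 in wild type (16.5% of all genes). Among them Kdr, a receptor for vascular endothelial growth factor, was at -1.32 ± 0.19 (adjusted p = 1.18e-05) and -1.16 ± 0.19 (adjusted p = 0.000172), respectively. Their summed level was 3053 to 5582 CPM with HDM against 7680 to 8072 CPM with saline in the libraries labelled knockout, and 3570 to 6132 CPM against 5400 to 8235 CPM in wild type. Club cell markers fell as well, 11 of 12 in each genotype, with Scgb1a1 at -1.84 ± 0.24 (adjusted p = 4.45e-06) and -1.40 ± 0.23 (adjusted p = 0.000248); the part of either cell type in the Flrt3 result was not tested.

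Krt79 was the second member that differed between genotypes under HDM, where 2 of the 10 passed, 1 higher (4.79% of all genes) and 1 lower (1.88%), and 6.67% of all genes passed in either direction. It stood at 3.74, 5.80, 5.54, 3.42 and 3.72 CPM in libraries labelled knockout with HDM, against 16.3, 10.3, 6.14, 5.33 and 18.0 CPM in wild type with HDM. These groups overlapped by 1 wild-type library, and the log2 difference was -1.33 ± 0.32 (SE; adjusted p = 0.0158). Fabp1 was the 1 member with no overlap in this comparison (7.01% of all genes). Without replicate 4 of the libraries labelled knockout with HDM the Krt79 difference was -1.25 (adjusted p = 0.056), and with limma voom it was -1.21 (adjusted p = 0.0511). With saline Krt79 was at 4.50, 11.0, 9.24, 6.65 and 7.02 CPM in libraries labelled knockout, against 11.5, 10.4, 12.3, 6.44 and 13.5 CPM in wild type. For HDM against saline it was -0.79 ± 0.32 with knockout labels (adjusted p = 0.0448), a call lost in 13 of 20 fits that each left out 1 library, and 0.05 ± 0.31 in wild type (adjusted p = 0.916). The 13 were knockout-labelled HDM replicates 1, 4 and 5, knockout-labelled saline replicates 2 to 5, wild-type HDM replicates 1 and 2, and wild-type saline replicates 1, 2, 3 and 5, and over all 20 the adjusted p ran from 0.0271 to 0.151. The call was also lost with limma voom (adjusted p = 0.0939) and with another filter or none (adjusted p = 0.0539 and 0.0532). The difference between the Krt79 responses was -0.84 ± 0.44 (adjusted p = 0.364). Cd209a, a dendritic cell gene, was among the 3 nearest profiles (0.46), with Slc10a6 and Dll1 (0.40 and 0.45). The SD of Krt79 itself over the 20 libraries was 0.69, so these profiles were not close.

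In order of group mean, Olr1 was highest in the libraries labelled knockout with HDM, then wild type with HDM, then the saline libraries labelled knockout and wild type, and neither difference between genotypes passed the test. Flrt3 and Marco had the reverse order by treatment. Fabp1 had 3 groups between 2.78 and 3.61 CPM on average that did not pass in any pairing tested, and wild type with HDM at 0.379 CPM. The order of the groups thus differed among the members.

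Other genes of the alveolar macrophage programme came from a list of 30, of which 29 were tested, and moved in both directions under HDM. In the libraries labelled knockout 14 rose and 5 fell, where 26.2% of all genes rose and 25.7% fell (median log2 0.55, beside 0.02 over all genes), and in wild type 12 rose and 6 fell, where 13.6% rose and 16.5% fell (median 0.23, beside -0.02). Chil3, a chitinase-like lectin, rose by 3.51 ± 0.28 in the libraries labelled knockout and by 4.12 ± 0.29 in wild type (SE; adjusted p = 1.93e-08 and 1.85e-08), and F7, coagulation factor VII, by 2.49 and 2.39. Vstm2a fell by 2.89 in the libraries labelled knockout. Between genotypes under HDM 3 were higher in the libraries labelled knockout (4.79% of all genes), namely Cd200r4 (1.89), Fpr1 (1.49) and Slc7a2 (0.55). Chil3 shares reads with near-identical copies and is uncertain for that reason.

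Of 25 signals and factors that instruct these macrophages, 14 rose and 6 fell under HDM in the libraries labelled knockout, beside 26.2% and 25.7% of all genes. In wild type 10 rose and 3 fell, beside 13.6% and 16.5%. The receptor for granulocyte-macrophage colony-stimulating factor was among those that rose: Csf2rb averaged 182 ± 33.7 CPM with HDM against 51.5 ± 9.24 CPM with saline in the libraries labelled knockout (log2 1.82 ± 0.21, SE, adjusted p = 1.45e-06), and Csf2ra averaged 54.9 ± 8.43 CPM with HDM against 23.3 ± 2.37 CPM with saline in wild type (SD, n = 5 each; log2 1.24 ± 0.11, adjusted p = 1.95e-07). Csf2, which encodes the cytokine itself, rose by 1.53 ± 0.28 in wild type (adjusted p = 0.000476). The means of these genes were also higher with HDM in the other genotype. Csf2rb averaged 114 CPM with HDM against 59.3 CPM with saline in wild type. With knockout labels Csf2ra averaged 63.5 CPM against 22.1 CPM, and Csf2 5.14 CPM against 3.24 CPM. The transcription factor Egr2 rose by 2.21 in the libraries labelled knockout and by 1.86 in wild type. Bhlhe41, a repressor with a role in alveolar macrophage identity in mouse, was higher in the libraries labelled knockout than in wild type under HDM (0.67, adjusted p = 0.00529) and under saline (0.95, adjusted p = 0.00053), and Maf was higher under HDM (0.93, adjusted p = 0.000176). In that comparison 3 of the 25 were higher and 2 lower (4.79% and 1.88% of all genes), and Bach2 was at -0.68 (adjusted p = 0.0103).

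Among 29 lipid-handling genes and PPAR gamma targets, 9 rose and 5 fell under HDM in the libraries labelled knockout, and 6 rose and 2 fell in wild type. Of all tested genes 26.2% rose and 25.7% fell in the libraries labelled knockout, and 13.6% rose and 16.5% fell in wild type. These shares also stand beside the HDM counts of the other lists in this paragraph. Msr1, a scavenger receptor for modified lipoproteins, rose by 2.72 ± 0.27 and 2.32 ± 0.27 in the 2 genotypes (SE; adjusted p = 2.69e-07 in the libraries labelled knockout and 6.79e-06 in wild type). Lpl, which releases fatty acids from lipoproteins, rose by 1.37 and 1.11, and Fabp5 by 1.15 in each. Between genotypes under HDM, Apoe (0.81) and Lipa (0.43) were higher in the libraries labelled knockout. General macrophage markers rose in 13 of 13 in the libraries labelled knockout and in 9 of 13 in wild type. Under HDM 8 of 13 were higher in the libraries labelled knockout than in wild type (4.79% of all genes), among them Emr1 (1.56 ± 0.15, adjusted p = 4.86e-06) and Cd68 (1.13 ± 0.25, adjusted p = 0.00975). Their summed level was 7901 to 12049 CPM with HDM against 4192 to 6092 CPM with saline in the libraries labelled knockout, and 4270 to 7769 CPM against 3093 to 4544 CPM in wild type. Among the 17 markers of monocytes and interstitial macrophages, 13 were called higher and 1 lower in the libraries labelled knockout, and 10 higher and 0 lower in wild type. Eosinophil markers rose in 5 of 6 in both, and of 12 dendritic cell markers 7 rose and 2 fell in the libraries labelled knockout, and 6 rose in wild type. Marco and Flrt3 were thus lower under HDM in the libraries labelled knockout, where 13 of 13 general macrophage markers were called higher. In wild type 9 of 13 were called higher, Flrt3 was lower, and the Marco call was lost without saline replicate 4. Capillary endothelial and club cell markers also fell, and the cell source of the Flrt3 RNA was not tested.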

How the data were processed

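Whole-lung RNA was sequenced in 20 libraries, 5 in each of 4 groups, which the labels number as biological replicates; p-values measure the spread between these libraries. The authors deposited 1 table of expected counts per gene, not normalized; per the submitters' processing notes, Bowtie2 2.1.0 and RSEM 1.2.15 were used and the build named is hg38, which is human, whereas the symbols are those of mouse genes. No coordinates were taken from it. RSEM splits reads that match several genes, so near-identical genes are uncertain. Per the labels' protocols the library kit keeps the strand.

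Expected counts were rounded to whole numbers. filterByExpr kept 16193 of 24054 genes, and TMM-scaled counts were fitted with edgeR 4.0.16 (R 4.3.3) as 1 mean per group over all 20 libraries, with 16 residual degrees of freedom and the quasi-likelihood test. Calls are at an adjusted p under 0.05 (Benjamini-Hochberg over all tested genes). Log2 CPM used a prior count of 2. The script was tested on simulated data. Libraries held 12573113 to 23305673 counts, and the ribosomal transcript Rn45s took 1.21% to 6.08%. Alternatives were DESeq2 1.42.0, limma 3.58.1 (voom), other filters, the compared libraries alone, a replicate block, each library left out, libraries rich in Adipoq left out, and adipose or liver covariates.

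The 10 members and the lists were chosen with earlier results of these data known, and the lymphocyte and airway epithelial lists and the 10 CPM limit on Adipoq after values were seen. Named were all members, up to 4 genes of each other list with an adjusted p under 0.05 and the largest fold change, defining markers of other cell types, and the 3 genes nearest each member by root mean square difference of centred log2 CPM. Siglec5 and Cd68 were named after their values were seen. Promoters are from RefSeq (GRCm38.p6).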

Additional observations from a re-analysis of the deposited data

Results flagged for a closer look

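The level of Marco in wild-type saline replicate 4, 92.1 CPM, stood apart from the other 4 libraries of its group. Fabp4 and Cidec stood apart in replicate 5 of the libraries labelled knockout with HDM, at 760 CPM and 113 CPM, and this library is 1 of the 5 rich in Adipoq. Of 40 sets of 5 libraries examined, 3 held such a library. Chance gives about 1 in 20 if values are normally distributed, which CPM values need not be. The Fabp4 and Cidec cases come from the same library, so the 3 are not independent. The HDM response of Fabp1 differed between the genotype labels by a log2 value of 2.68, knockout labels minus wild type, by the interaction test of edgeR.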

How the results depend on the processing

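Of 1590 member values under alternatives other than the liver covariate, 1546 stayed on their side of the threshold, 30 lost a call, 11 gained one and 3 changed sign with a call; the cause was not tested. Of the 1546, 93 changed sign without a call in either fit. The 3 are all for HDM in the libraries labelled knockout: Fabp4 -2.22 and Cidec -2.83 without the libraries at 50 CPM of Adipoq or more, and Cidec -2.02 without those at 10 CPM or more. With the liver covariate, which follows the groups closely, Krt79 was 0.15 and Flrt3 0.45 there, and 9 genes and 0 members were called for HDM in the libraries labelled knockout, 1 gene and 0 members between genotypes under HDM, and 2 genes and 0 members for the interaction. For HDM in wild type, 2892 genes were called with the compared libraries alone and 3147 without the libraries at 10 CPM of Adipoq. For HDM in the libraries labelled knockout, 8 members were called without those at 50 CPM. Between genotypes under saline, DESeq2 called 327 genes and 1 member, and 65 genes were called without the libraries at 10 CPM. Between genotypes under HDM, voom called 1 member. For the interaction, DESeq2 called 608 genes and the adipose covariate 477; without the libraries at 50 CPM 104 genes were called, and without those at 10 CPM 24 genes and 0 members, with Fabp1 at 2.85 (adjusted p = 0.0535).

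Leaving out 1 library at a time gave 3697 to 5755 genes and 4 to 5 members for HDM in wild type, 7591 to 8770 and 4 to 6 in the libraries labelled knockout, 102 to 183 and 0 to 0 between genotypes under saline, 537 to 1375 and 1 to 3 under HDM, and 78 to 263 and 1 to 1 for the interaction. The interaction count was lowest without replicate 4 of the libraries labelled knockout with HDM. Fabp1 stayed called in all 20 such fits for HDM in wild type (-3.00 to -2.57), between genotypes under HDM (2.83 to 3.22) and for the interaction (2.46 to 2.85). The Marco values in wild type ran from -2.81 to -0.73. Cidec between genotypes under HDM was -4.26 without replicate 5 of the libraries labelled knockout (adjusted p = 0.0364).

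Same-numbered libraries did not deviate together in every pair (correlations of -0.43 to 0.51). Differently numbered libraries were not compared, so this cannot decide whether the numbers pair libraries. The labels do not say that they do. The replicate block called 5058 genes and 4 members for HDM in wild type, with Marco at -1.57 (adjusted p = 0.125), 8584 and 5 in the libraries labelled knockout, 160 and 0 under saline, 1047 and 2 under HDM, and 246 and 1 for the interaction. Depth limits Fabp1 in wild type with HDM, where a library holds 1 to 11 counts.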
